A study of Mus musculus with 6 samples.

Results

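Transcripts of the respiratory chain were examined in natural regulatory T cells (nTregs) cultured with an agonist of the prostaglandin E2 receptor EP4 or with vehicle. The genes are those whose names mark them as subunits of complexes I to V: Nduf genes with a letter a, b, c, s or v and a digit, Sdha to Sdhd, Uqcr, Cox4 to Cox8 and Atp5 genes, and the mt-Nd, mt-Co, mt-Atp and mt-Cytb genes, without names containing -ps. The names give 97 of the 47643 reference genes listed, 84 encoded in the nucleus and 13 in mitochondrial DNA. The nuclear genes fall into 37 of complex I, 4 of complex II, 8 of complex III, 18 of complex IV and 17 of complex V, and the mitochondrial genes into 7, 1, 3 and 2 of complexes I, III, IV and V. The name rule also takes Atp5s and Atp5sl, whose products are assembly or coupling proteins rather than core subunits. It leaves out subunits with other names, such as Ndufab1 of complex I, so the genes of a complex are not its full set.

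The cells were primary splenic nTregs of C57BL/6 mice carrying Foxp3-DTR/EGFP, an allele that puts a diphtheria toxin receptor and a green fluorescent protein under the Foxp3 locus, and this allele is shared by all libraries. They were stimulated for 2 days by antibody to CD3 on the plate with antibody to CD28 and IL-2 in solution. They then received 100 nM of the EP4 agonist for 6 h in one condition and DMSO vehicle for 6 h in the other, before sorting for green fluorescence. Each condition has 3 libraries, numbered 1 to 3. The labels do not say whether these are separate mice or cultures, so a p-value speaks only of the spread from library to library, which may be technical. The cells met the agonist outside the animal. Aligned sequence came to 4.98, 4.32 and 4.86 gigabases in the agonist libraries and to 4.95, 5.65 and 4.49 gigabases in the vehicle libraries. All 6 Treg markers examined were at 1 FPKM or more, with summed levels of 1640 to 1810 FPKM with agonist and 1488 to 1588 FPKM with vehicle. The 2 CD8 T cell markers summed to 4.53 to 6.41 FPKM with agonist and 3.89 to 5.43 FPKM with vehicle, the 5 B cell markers to 3.76 to 6.25 FPKM and 5.76 to 6.07 FPKM, and the 3 erythroid markers to 0.637 to 2.66 FPKM and 1.56 to 5.82 FPKM. Myeloid, NK and platelet markers summed to less than 1 FPKM in each library, with Klra8 at 0, and the part of these cells in any result was not tested.

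The respiratory chain passes electrons from NADH (complex I) and succinate (complex II) through ubiquinone to complex III, then through cytochrome c to complex IV, where oxygen is reduced. Complexes I, III and IV pump protons across the inner mitochondrial membrane, and complex V, the ATP synthase, uses the gradient to make ATP. Complexes I, III, IV and V are built from subunits of both genomes, complex II from nuclear subunits alone. Mitochondrial DNA is transcribed from each strand as long precursors that are cut into single messengers, while each nuclear subunit gene has its own promoter. EP4 couples to the stimulatory G protein and raises cyclic AMP, and regulatory T cells are known for a marked reliance on oxidative phosphorylation.

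No gene of the respiratory chain rose or fell with the agonist. Of the 97, 90 had an FPKM (fragments scaled to transcript length and to library size) of at least 1 in 3 or more libraries and were tested. The 7 that were not are the complex IV isoform genes Cox4i2, Cox6a2, Cox7a1, Cox7b2, Cox8b and Cox8c and the complex I gene Ndufa4l2. limma's moderated test on log2(FPKM + 1) called 0 of them higher and 0 lower at an adjusted p of 0.05, where it called 0.345% of all 12186 tested genes higher and 0.0492% lower. An unadjusted p under 0.05 was found for 4 of the 90, or 4.44%, against 14% of all tested genes. With the replicate number as a block, which pairs each agonist library with the vehicle library of the same number, the test called 4.09% of all genes higher and 6.41% lower and again 0 of the 90 in either direction. In that fit 18 of the 90, or 20%, had an unadjusted p under 0.05, against 29.8% of all tested genes. The share with small p-values over the 90 genes together was below that of all genes in both fits. By genome the main fit gave 2.60% of the nuclear genes and 15.4% of the 13 mitochondrial genes, the latter just above all genes. With the block the shares were 20.8% and 15.4%, both below all genes. The intervals were narrow for most: the 95% confidence interval of the change lay within 1.5-fold in either direction for 84 of the 90 and within 2-fold for 88.

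**Figure D1:**
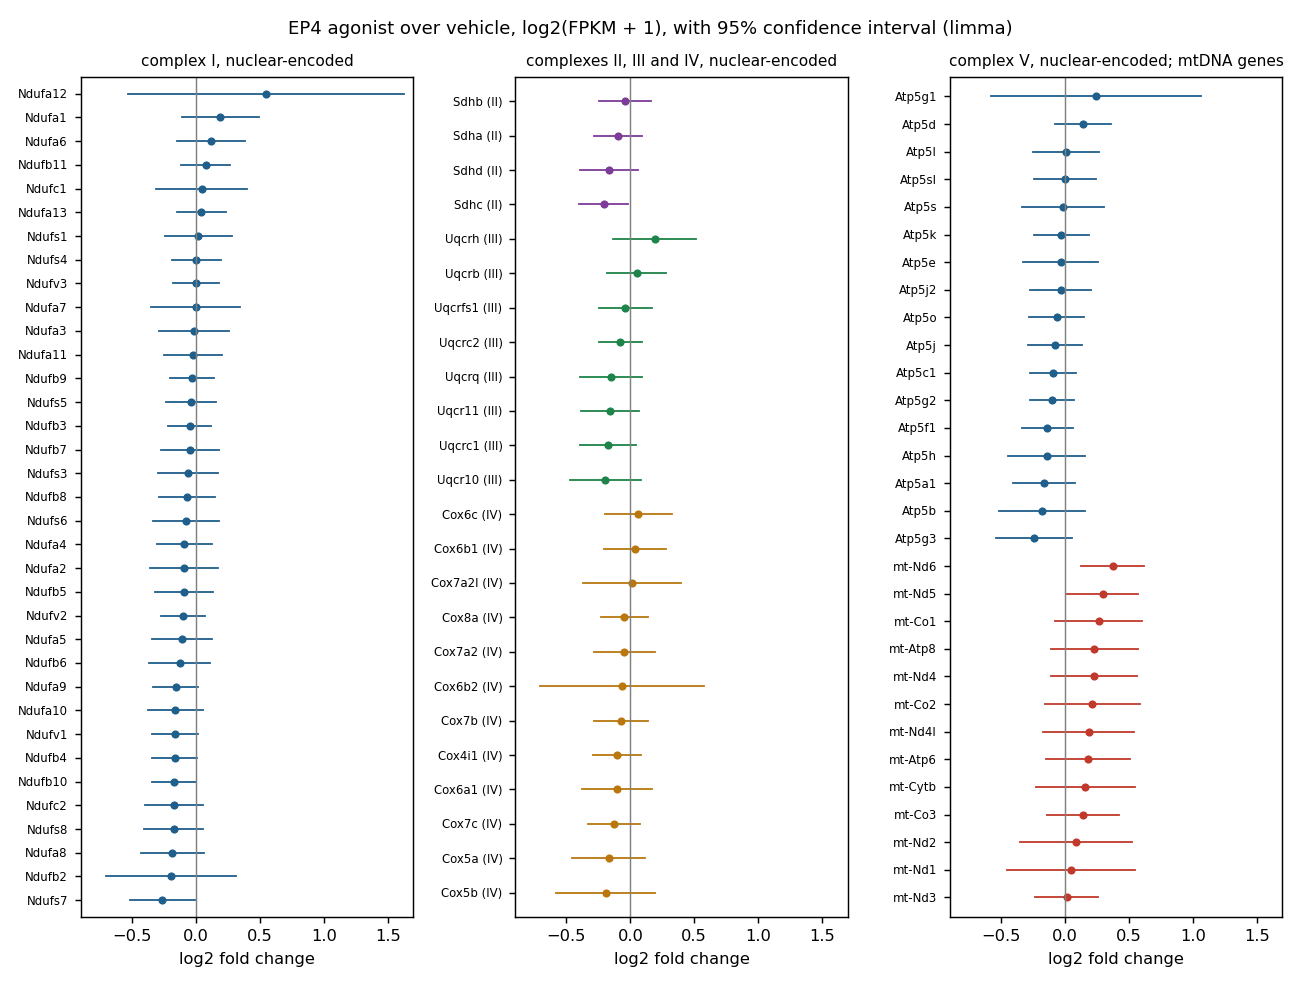
Log2 fold change of 89 of the 90 tested respiratory chain genes, EP4 agonist over vehicle (horizontal axis, log2(FPKM + 1) scale; points, estimates from limma; lines, 95% confidence intervals; 3 libraries in each condition), sorted within complex. Estimates of the nuclear genes lie on both sides of 0, and those of the 13 mitochondrial genes (red) lie above 0 with intervals that mostly include it.

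The genes encoded by the nucleus and by mitochondrial DNA had estimates on opposite sides of 0 in the median. The median log2 fold change was -0.08 over the 77 tested nuclear genes and 0.19 over the 13 mitochondrial genes, beside -0.03 over all tested genes. Estimates were below 0 for 60 of the 77 nuclear genes (77.9%) and for 0 of the 13 mitochondrial genes, against 57.2% of all tested genes. The genes of a genome share libraries and, for the mitochondrial ones, precursor transcripts, so these counts are not independent observations. Conditions that did not overlap in either direction were found for 11 of the 90, against 19.4% of all tested genes. Every agonist library was below every vehicle library for 9 nuclear genes, or 11.7%, against 12.1% of all tested genes. Among them were Ndufb10, Ndufv1, Ndufa9, Ndufb4, Sdhc, Cox4i1, Atp5g2 and Atp5f1, named after their values were seen. Every agonist library was above every vehicle library for 2 of the 13 mitochondrial genes, mt-Nd6 and mt-Co1, and for 0 nuclear genes, against 7.27% of all tested genes.

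The mitochondrial difference was not carried by every pair of libraries. Over the 13 mitochondrial genes the median log2 difference, agonist minus vehicle, was 0.39 in pair 1, 0.30 in pair 2 and -0.15 in pair 3. Over the 77 nuclear genes it was -0.18, -0.01 and -0.05, and over all tested genes -0.03 in each pair. Pair 3 thus ran against pairs 1 and 2 for the mitochondrial genes. Vehicle replicate 1 was the lowest library for 12 of the 13 mitochondrial genes and the highest for 29 of the 77 nuclear genes. Agonist replicate 2 was the highest for 11 of the 13 mitochondrial genes, and agonist replicate 1 the lowest for 38 of the 77 nuclear genes. The nuclear difference was also uneven: 7, 38 and 28 of the 77 were above 0 in pairs 1, 2 and 3. Leaving out vehicle replicate 1 gave a mitochondrial median of 0.08, leaving out agonist replicate 2 gave 0.10 and leaving out vehicle replicate 3 gave 0.29. Under the block it was 0.09 with pair 1 left out and 0.36 with pair 3 left out. Quantile normalization gave 0.12. The nuclear median was -0.04 when vehicle replicate 1 was left out, -0.04 when agonist replicate 1 was, -0.12 when agonist replicate 2 was, -0.02 after quantile normalization and -0.04 after upper quartile scaling. Under the block it was -0.02 with pair 1 left out and -0.12 with pair 2 left out.

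Summed over genes, the 13 mitochondrial messengers reached 24037, 27674 and 22782 FPKM in the agonist libraries, against 18020, 22453 and 24424 FPKM in the vehicle libraries. The ranges overlapped, with vehicle replicate 3 above agonist replicates 1 and 3. The 84 nuclear genes summed to 6490, 7250 and 6636 FPKM with agonist, against 7341, 7269 and 6757 FPKM with vehicle. The ratio of the mitochondrial to the nuclear sum was 3.70, 3.82 and 3.43 in the agonist libraries, against 2.45, 3.09 and 3.61 in the vehicle libraries. The ratio averaged 3.65 ± 0.197 with agonist and 3.05 ± 0.581 with vehicle (SD, n = 3 each), and its ranges also overlapped. FPKM is a share of each library, and in bulk RNA fewer cells with a transcript and less of it per cell cannot be told apart.

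**Figure D2:**
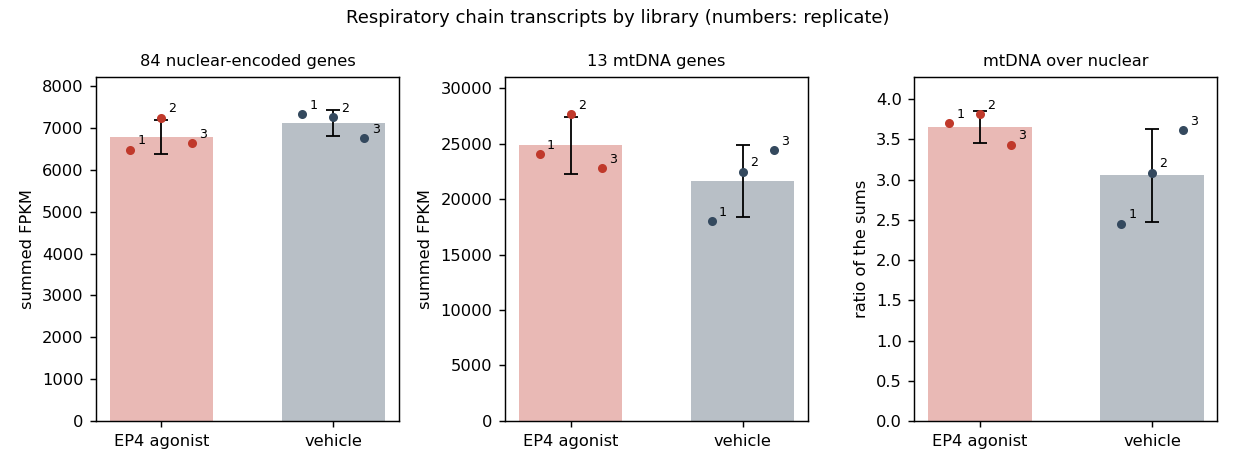
Summed FPKM of the 84 nuclear and 13 mitochondrial respiratory chain genes and the ratio of the sums (vertical axes, from 0), by condition (EP4 agonist left, vehicle right). Bars are means, error bars SD of 3 libraries, points single libraries with their replicate numbers. The mitochondrial sum is lowest in vehicle replicate 1 at 18020 FPKM and highest in agonist replicate 2 at 27674 FPKM.

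The messengers differed in level by genome and by complex. On the FPKM scale, which is per length, the median level over the 6 libraries was 1549 FPKM for the 13 mitochondrial genes and 70.7 FPKM for the 77 tested nuclear genes, beside 10.1 FPKM for all tested genes. All 13 mitochondrial genes and 49 of the 77 nuclear genes lay among the 10% of tested genes with the highest levels. Among the nuclear genes, untested ones included, the median level was 45.6 FPKM for complex I, 66.9 for complex II, 80.1 for complex III, 101 for complex IV and 122 for complex V. The complex IV value is lowered by its untested isoform genes, as 12 of its 18 genes were tested. The middle levels of those 12 were 146 FPKM (Cox7a2l) and 148 FPKM (Cox6b1), above the complex V median. Subunits of one complex were far from equal in level: nuclear complex I genes tested ran from Ndufb2, a small accessory subunit, at 4.35 FPKM to Ndufa4 at 154 FPKM. The pooled SD within conditions on the log2 scale had a median of 0.12 over the nuclear genes, 0.19 over the mitochondrial genes and 0.14 over all tested genes. It was highest for Ndufa12 (0.75), Atp5g1 (0.56) and Cox6b2 (0.42), so the estimates of these 3 are the least precise.

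**Figure D3:**
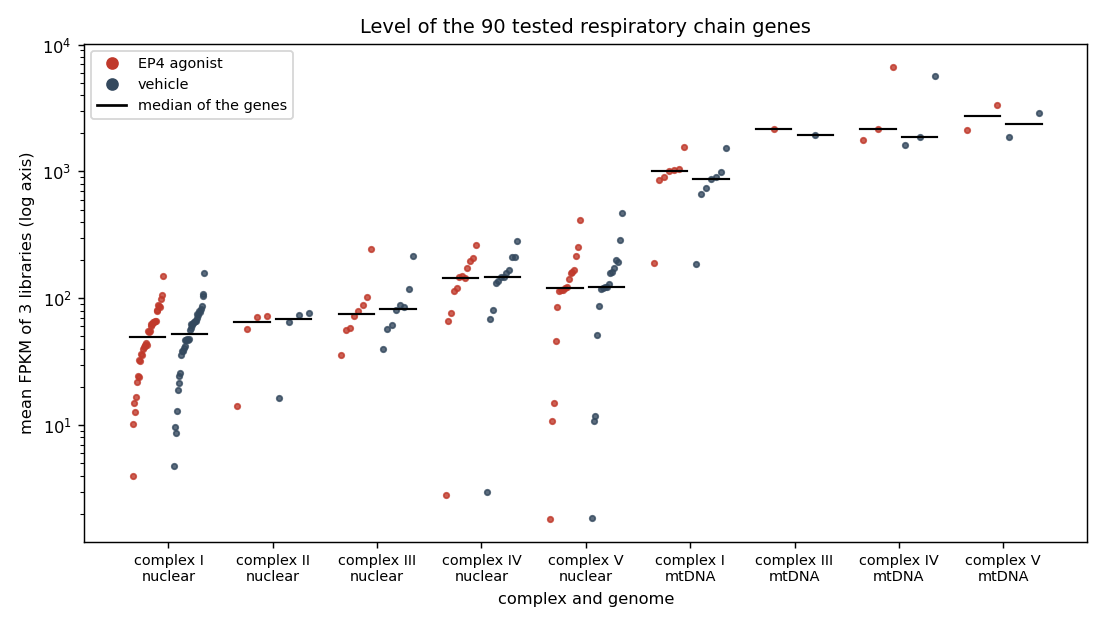
Mean FPKM (vertical log axis) of the 90 tested respiratory chain genes by complex and genome. Red points are means of 3 EP4 agonist libraries, blue points of 3 vehicle libraries, each point 1 gene, and black lines the median of the genes. Each red column sits beside a blue column of nearly the same shape, and the mitochondrial genes lie above nearly all nuclear ones.

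Among the mitochondrial genes, the 7 of complex I encode core membrane subunits of its proton-pumping arm. mt-Nd6 (ENSMUSG00000064368.1, chrM:13552-14070, mm10) is the one on the opposite strand from the others. It had 930, 824 and 810 FPKM with agonist, against 621, 630 and 729 FPKM with vehicle. The agonist libraries all lay above the vehicle libraries. Its log2 fold change was 0.37 (SE 0.11, 95% confidence interval 0.13 to 0.62; adjusted p by limma 0.200, under the block 0.0749), with all 3 pairs above 0. Over the 22 alternative settings the estimate ran from 0.27 to 0.48 and the adjusted p from 0.0589 to 0.552. mt-Nd5 (chrM:11742-13565), whose end overlaps the end of mt-Nd6 on the other strand, had 960, 845 and 900 FPKM with agonist, against 676, 686 and 850 FPKM with vehicle. Agonist replicate 2 fell just under vehicle replicate 3, so its groups overlapped by 1 library. The log2 fold change was 0.30 (SE 0.12; limma adjusted p = 0.332). The strand setting of the counting is not given in the sources used here, so reads of the overlap of mt-Nd5 and mt-Nd6 may not have been told apart.

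The other 5 complex I messengers overlapped between conditions. mt-Nd1 had 1381, 1848 and 1460 FPKM with agonist, against 1092, 1668 and 1846 FPKM with vehicle. mt-Nd2 had 935, 1229 and 952 FPKM with agonist, against 747, 1077 and 1130 FPKM with vehicle. For mt-Nd1 and mt-Nd2 the highest vehicle library exceeded 2 of the 3 agonist libraries. mt-Nd4l had 979, 1147 and 930 FPKM with agonist, against 730, 938 and 1031 FPKM with vehicle. mt-Nd4, which shares a messenger with mt-Nd4l and overlaps it by a few bases, had 966, 1163 and 902 FPKM with agonist, against 730, 900 and 962 FPKM with vehicle. These estimates were 0.05 for mt-Nd1, 0.09 for mt-Nd2, 0.19 for mt-Nd4l and 0.23 for mt-Nd4 (limma adjusted p from 0.524 to 0.945). mt-Nd3 was the lowest of the mitochondrial messengers, at 174, 212 and 180 FPKM with agonist, against 175, 184 and 201 FPKM with vehicle, and its log2 fold change was 0.01.

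mt-Cytb, the cytochrome b of complex III, had 2028, 2498 and 1929 FPKM with agonist, against 1543, 2137 and 2121 FPKM with vehicle (log2 fold change 0.16, limma adjusted p = 0.710). mt-Co1 (ENSMUSG00000064351.1, chrM:5328-6872, mm10), the catalytic subunit of complex IV, was the highest of all tested genes in mean FPKM. It had 6483, 7348 and 6284 FPKM with agonist, against 4599, 6030 and 6224 FPKM with vehicle. Its conditions did not overlap, but agonist replicate 3 and vehicle replicate 3 differed by little, and the log2 fold change of 0.26 had a confidence interval of -0.08 to 0.61 (limma adjusted p = 0.462). Being the top gene in every library, it was set equal by quantile normalization, where its estimate was 0. mt-Co2, which holds the first copper centre to take electrons from cytochrome c, had 1993, 2538 and 1915 FPKM with agonist, against 1539, 2052 and 1972 FPKM with vehicle. mt-Co3 had 1760, 1959 and 1626 FPKM with agonist, against 1455, 1589 and 1811 FPKM with vehicle. The estimates were 0.21 for mt-Co2 and 0.14 for mt-Co3, and the conditions overlapped for each.

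The ATP synthase subunits mt-Atp8 and mt-Atp6 are read from 1 messenger in overlapping frames. mt-Atp8 had 3338, 3684 and 3022 FPKM with agonist, against 2484, 2728 and 3404 FPKM with vehicle. mt-Atp6 had 2109, 2379 and 1872 FPKM with agonist, against 1631, 1834 and 2143 FPKM with vehicle. Vehicle replicate 3 exceeded agonist replicate 3 in each, and the log2 fold changes were 0.23 and 0.18 (limma adjusted p = 0.523 and 0.601). The overlap of these genes, chrM:7927-7969 of GRCm38 on the plus strand, is shown because reads within it fit both; the first capitals are the start codon of mt-Atp6 and the last the stop codon of mt-Atp8.
mt-Atp8/mt-Atp6 overlap: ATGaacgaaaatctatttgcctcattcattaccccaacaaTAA

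**Figure D4:**
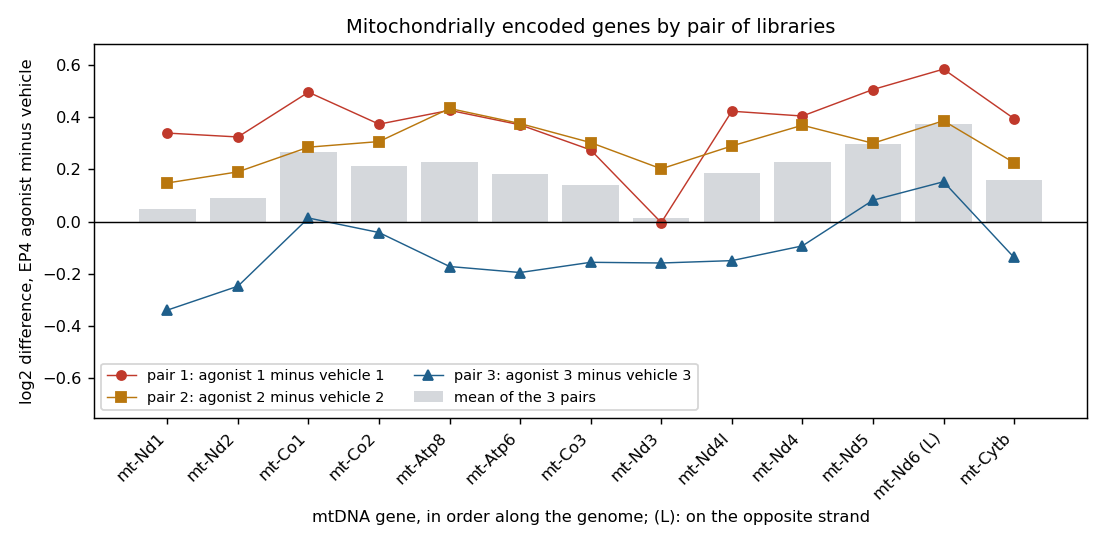
Log2 difference, EP4 agonist minus vehicle on the log2(FPKM + 1) scale (vertical axis), of the 13 mitochondrial genes in their order along the genome. Symbols are the 3 pairs of libraries with the same replicate number, grey bars their mean. Pair 3 lies below 0 for 10 of the 13 genes, and mt-Co1, mt-Nd5 and mt-Nd6 are above 0 in all 3 pairs.

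In their order along the genome, the estimates were lowest at mt-Nd1, mt-Nd2 and mt-Nd3 and highest at mt-Nd5 and mt-Nd6. The signs for mt-Nd1 and mt-Nd2 turned when vehicle replicate 1 was left out (-0.18 and -0.10) or agonist replicate 2 (-0.08 and -0.04), and that of mt-Nd3 did too (-0.03 and -0.07). The 2 mitochondrial ribosomal RNAs, which lie before mt-Nd1 and are transcribed with it, had estimates on the same side of 0 as the messengers. mt-Rnr1, the small subunit RNA, had 259, 318 and 204 FPKM with agonist, against 159, 196 and 174 FPKM with vehicle. The agonist libraries all lay above the vehicle libraries, with a log2 fold change of 0.54 (SE 0.17; adjusted p by limma 0.240, under the block 0.0482). mt-Rnr2, the large subunit RNA, had 341, 420 and 247 FPKM with agonist, against 226, 260 and 219 FPKM with vehicle (0.48, adjusted p = 0.327, and 0.0610 with the block). The library kit selects polyadenylated RNA, and the cytoplasmic 18S row Rn18s-rs5 stood at 2379, 4063 and 1385 FPKM with agonist, against 2081, 2254 and 1172 FPKM with vehicle. Agonist replicate 2 was the highest library for the 18S row and for both mitochondrial ribosomal RNAs, and the part of residual ribosomal RNA in the mitochondrial values was not tested.

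For 7 of the 13 mitochondrial genes the nuclear genome holds a near-identical copy of at least part of the gene. Each copy has its own row, so the levels of these genes are uncertain. The 7 copies lie together on the minus strand of chr1:24611535-24616197 (mm10) and are annotated as pseudogenes Gm10925, Gm29216, Gm28661, Gm28437, Gm28438, Gm28439 and Gm10222. Over the aligned bases, mt-Atp6, mt-Co2, mt-Co3, mt-Nd4 and mt-Nd4l had 0 differences from their copies. mt-Nd3 differed from Gm28438 at 1 of 345 bases (T3C, the base of mt-Nd3 first, counted from 1 at its 5′ end), and mt-Co1 from Gm29216 at 6 of 492. Of the 7 copies, 5 were listed at almost the level of the mitochondrial genes themselves: Gm10925 averaged 2005 FPKM beside 1994 FPKM for mt-Atp6, and Gm28438 199 FPKM beside 188 FPKM for mt-Nd3. The other two were lower, with Gm29216 at 2174 FPKM beside 6161 FPKM for mt-Co1 and Gm28439 at 574 FPKM beside 937 FPKM for mt-Nd4. How the counting placed reads that match both is not given in the sources used here. With the copies' FPKM added, and that of the further pseudogenes Gm13340 for mt-Co1 and Gm13341 for mt-Co2, the mitochondrial median stayed at 0.19. The 7 copies had log2 fold changes close to those of their genes, from 0.02 for Gm28438 (mt-Nd3 0.01) to 0.29 for Gm29216 (mt-Co1 0.26). Adding them could therefore hardly move the median, and it does not show where shared reads belong. The first 60 bases of mt-Nd3 (chrM:9459-9518, plus strand) and of its copy (chr1:24613060-24613119, minus strand), from GRCm38 and GENCODE M21, are shown with the differing base in capitals, since a read that starts past it cannot tell them apart.
mt-Nd3: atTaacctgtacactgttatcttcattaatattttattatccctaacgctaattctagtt
Gm28438: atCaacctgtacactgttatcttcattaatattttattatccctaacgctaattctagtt

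The nuclear subunits of complex I, 36 of 37 tested, had a median log2 fold change of -0.07, with 27 below 0 and 9 above. Ndufa4, the member with the highest level, had 139, 161 and 148 FPKM with agonist, against 157, 169 and 151 FPKM with vehicle (log2 fold change -0.09). Its paralog Ndufa4l2, known for induction by low oxygen, was listed at 0 in 5 libraries and at 0.139 FPKM in vehicle replicate 3. The product of Ndufa4 was later found to belong to complex IV, and counting it there left the medians of complexes I and IV at -0.07 and -0.07. The lowest estimate was that of Ndufs7 (ENSMUSG00000020153.14, chr10:80249121-80256794, mm10), a subunit that carries the last iron-sulphur cluster before ubiquinone. It had 29.8, 35.3 and 30.9 FPKM with agonist, against 43.2, 38.5 and 34.2 FPKM with vehicle. The conditions overlapped by agonist replicate 2, and the log2 fold change was -0.26 (SE 0.11, confidence interval -0.52 to -0.01; limma adjusted p = 0.351). Ndufb10, an accessory subunit of the membrane arm, had the smallest adjusted p of the nuclear complex I genes with the block (0.0906). It had 67.0, 67.0 and 65.7 FPKM with agonist, against 79.2, 73.8 and 71.7 FPKM with vehicle, a log2 fold change of -0.17. The complex I median was -0.03 when vehicle replicate 1 was left out, -0.04 when agonist replicate 1 was, and -0.12 when vehicle replicate 3 or agonist replicate 2 was. It was -0.004 with quantile normalization, and 0.0048 with the block and without pair 1.

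Ndufa12 (ENSMUSG00000020022.16, chr10:94198955-94221443, mm10), an accessory subunit, had the highest estimate, which rested on 1 library. Its reference row had 28.4, 8.74 and 7.85 FPKM with agonist, against 5.67, 10.9 and 9.24 FPKM with vehicle. Only agonist replicate 1 stood apart, and the log2 fold change was 0.55 (SE 0.46; limma adjusted p = 0.639). In that library the pseudogene Gm15920, which shares 50-base stretches with Ndufa12, was low: it had 7.91, 41.5 and 32.1 FPKM with agonist, against 39.2, 48.7 and 45.5 FPKM with vehicle. The locus assembled from each library's own reads over the span of Ndufa12 had 28.7, 45.1 and 36.1 FPKM with agonist, against 39.5, 36.8 and 44.4 FPKM with vehicle. On this scale agonist replicate 1 was the lowest and not the highest library. The log2 fold change was -0.15 from the assembled loci, -0.33 with the pseudogene's FPKM added, -0.02 from the deposited coverage and -0.01 without agonist replicate 1.

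**Figure D5:**
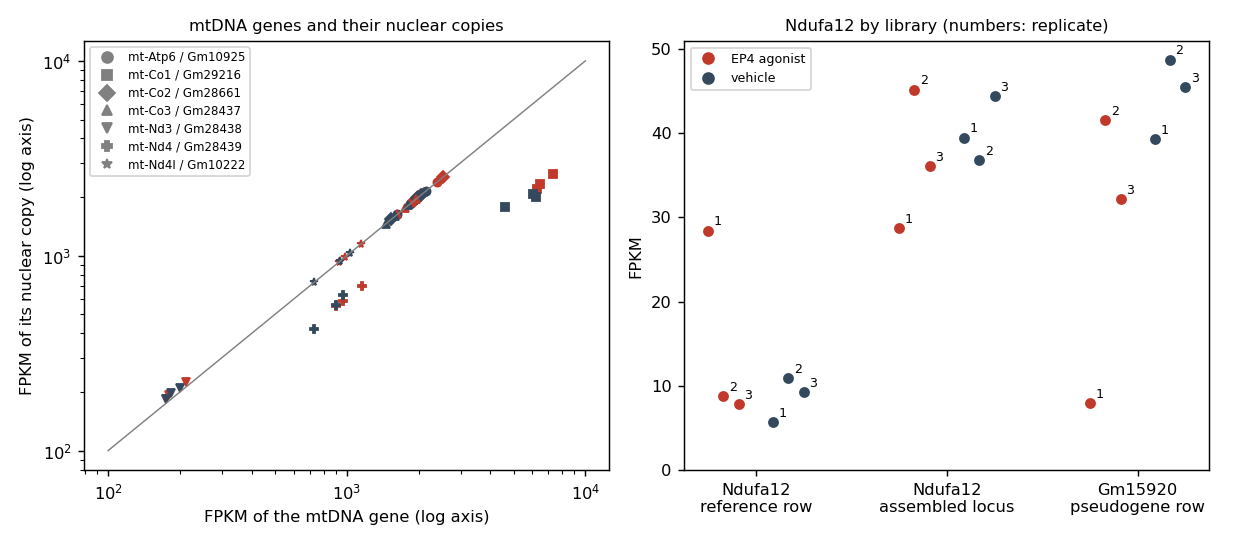
Left, FPKM of 7 mitochondrial genes (horizontal log axis) and of their nuclear copies (vertical log axis) in each library; the line marks equal values. Right, FPKM of Ndufa12 by library from its reference row, from the locus assembled from the reads, and of its pseudogene Gm15920. Red points are EP4 agonist libraries, blue points vehicle libraries. Copies of 5 genes lie on the line, and agonist replicate 1 is the highest library in the Ndufa12 row and the lowest in the pseudogene row.

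Complex II oxidises succinate and also serves the tricarboxylic acid cycle. All 4 of its genes had estimates below 0, with a median of -0.13, which was -0.07 with quantile normalization and -0.08 when vehicle replicate 2 was left out. Sdha, the flavoprotein, had 71.6, 74.3 and 70.4 FPKM with agonist, against 71.7, 81.8 and 78.3 FPKM with vehicle. Sdhb, the iron-sulphur subunit, had 66.5, 77.9 and 70.2 FPKM with agonist, against 75.6, 74.99 and 70.3 FPKM with vehicle, and its estimate of -0.04 turned to 0.03 with quantile normalization. Sdhc (ENSMUSG00000058076.12, chr1:171127165-171150603, mm10), a membrane anchor, had 13.5, 14.7 and 14.0 FPKM with agonist, against 17.6, 16.6 and 15.2 FPKM with vehicle. The conditions did not overlap for Sdhc, with a log2 fold change of -0.21 (SE 0.08, confidence interval -0.40 to -0.01; adjusted p by limma 0.331, under the block 0.117).

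The 8 nuclear genes of complex III taken by the name rule, all Uqcr genes, had a median of -0.11, with 6 below 0. Leaving out agonist replicate 1 gave -0.06, leaving out agonist replicate 2 gave -0.18, and quantile normalization gave -0.05. Uqcrh, the hinge protein near cytochrome c1, was the member with the highest level and the highest estimate. It had 264, 244 and 222 FPKM with agonist, against 254, 207 and 182 FPKM with vehicle, and a log2 fold change of 0.19 with all 3 pairs above 0 (limma adjusted p = 0.582), which was 0.08 when vehicle replicate 3 was left out and 0.32 when vehicle replicate 1 was. Uqcr10, a small subunit, had 93.5, 114 and 101 FPKM with agonist, against 124, 128 and 102 FPKM with vehicle, a log2 fold change of -0.20 (adjusted p = 0.4999). Uqcrc1, a core protein, had 75.1, 87.6 and 73.7 FPKM with agonist, against 86.6, 94.0 and 86.4 FPKM with vehicle. The conditions overlapped by 1 library, agonist replicate 2, while each pair was below 0 (log2 fold change -0.18, adjusted p = 0.449, and 0.0839 with the block).

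In complex IV, several subunits exist as alternative isoforms of tissues, and the nTregs used the forms common to most cells. Cox4i1 averaged 263 ± 5.67 FPKM with agonist and 283 ± 14.3 FPKM with vehicle (SD, n = 3 each), while Cox4i2, a form of lung and low oxygen, stayed at 0.122 FPKM or less. Cox6a1 averaged 197 ± 22.6 FPKM with agonist and 211 ± 20.5 FPKM with vehicle, and its heart and muscle form Cox6a2 stayed at 0.0624 FPKM or less. Cox6b1 averaged 150 ± 9.23 FPKM with agonist and 147 ± 15.96 FPKM with vehicle. Its testis form Cox6b2 was low but present, at 4.36, 2.31 and 1.83 FPKM with agonist, against 4.14, 2.35 and 2.35 FPKM with vehicle. Replicate 1 was highest in each condition for Cox6b2. Cox7a2 averaged 66.4 ± 7.28 FPKM with agonist and 68.5 ± 4.19 FPKM with vehicle, and its muscle form Cox7a1 reached 1.003, 0.779 and 0.316 FPKM with agonist, against 1.28, 0.789 and 0.942 FPKM with vehicle. Cox7a2l had 171, 129 and 141 FPKM with agonist, against 177, 121 and 140 FPKM with vehicle, a log2 fold change of 0.01. Its level followed the replicate number more than the treatment. Cox7b averaged 76.8 ± 7.35 FPKM with agonist and 80.5 ± 1.63 FPKM with vehicle, and Cox8a 206 ± 6.53 FPKM and 213 ± 8.69 FPKM. Cox7b2, Cox8b and Cox8c were listed at 0 in all libraries.

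Of the 12 nuclear complex IV genes tested, 9 had estimates below 0, with a median of -0.07. This median was -0.04 when either vehicle replicate 1 or agonist replicate 1 was left out, -0.12 when agonist replicate 2 was, and -0.02 with quantile normalization. Cox4i1 had 257, 268 and 263 FPKM with agonist, against 299, 278 and 271 FPKM with vehicle. The conditions did not overlap, and the log2 fold change was -0.10 (SE 0.08; limma adjusted p = 0.604). Cox6c had the highest estimate, 0.06, with 159, 196 and 167 FPKM with agonist, against 180, 166 and 152 FPKM with vehicle. Cox5b, a zinc-binding subunit, had the lowest at -0.19, with 104, 124 and 113 FPKM with agonist, against 139, 156 and 100 FPKM with vehicle. The conditions overlapped for Cox5b by vehicle replicate 3. Its direction turned with the row used: the assembled loci had 224, 272 and 259 FPKM with agonist, against 139, 156 and 274 FPKM with vehicle, a log2 fold change of 0.47. The locus equalled the reference row in vehicle replicates 1 and 2 and was far above it in all other libraries. The 0.47 thus compares libraries whose loci stood differently to the reference row, and it does not settle the direction.

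Complex V held the nuclear gene with the highest level, Atp5b, and 14 of its 17 nuclear genes had estimates below 0, with a median of -0.06. Leaving out vehicle replicate 1 gave a median of -0.03, leaving out agonist replicate 1 gave -0.02, and leaving out agonist replicate 2 gave -0.11. Quantile normalization gave -0.01, and the block without pair 1 gave -0.0069. Atp5b (ENSMUSG00000025393.12, chr10:128083273-128090391, mm10), the catalytic beta subunit, had 359, 478 and 416 FPKM with agonist, against 404, 529 and 483 FPKM with vehicle. The conditions overlapped, but each agonist library was below the vehicle library of the same number (log2 fold change -0.18, SE 0.14; adjusted p by limma 0.623, under the block 0.0936). The estimate was -0.08 when agonist replicate 1 was left out, -0.09 when vehicle replicate 2 was, -0.28 when agonist replicate 2 was and -0.29 when vehicle replicate 1 was. Atp5a1, the alpha subunit, followed the same order of libraries with 230, 271 and 266 FPKM with agonist, against 262, 304 and 292 FPKM with vehicle (log2 fold change -0.16; adjusted p by limma 0.524, under the block 0.0967). The c subunit, which forms the rotor ring, is encoded by 3 genes with the same mature protein. Atp5g3 had 147, 193 and 165 FPKM with agonist, against 207, 212 and 177 FPKM with vehicle, the lowest estimate of the complex (-0.24, adjusted p = 0.440). Atp5g2 had 127, 117 and 121 FPKM with agonist, against 133, 129 and 129 FPKM with vehicle. The conditions did not overlap for Atp5g2, while 38.4% of its 50-base stretches are shared with other genes. Atp5g1 had 8.49, 23.4 and 13.2 FPKM with agonist, against 10.1, 16.3 and 9.30 FPKM with vehicle. Replicate 2 was highest in each condition, and its log2 fold change of 0.24 was -0.25 from the deposited coverage and -0.11 without agonist replicate 2. For Atp5f1 the conditions did not overlap at 42.3, 48.3 and 48.7 FPKM with agonist, against 49.4, 53.3 and 50.5 FPKM with vehicle. Its assembled loci averaged 177 FPKM, and on them the conditions overlapped. The loci had 152, 183 and 168 FPKM with agonist, against 178, 198 and 183 FPKM with vehicle.

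The nuclear genes share promoter letters that the name rule did not use. RefSeq start regions (GRCm38.p6), taken from 250 bases before to 50 after the start, were matched for 66 of the 84. On both strands, the NRF1 motif GCGCANGCGC was found in 17 of the 66 (25.8%), against 5.19% of 27025 genes with such a region. The ETS motif CCGGAAG, read by GABP, was found in 16 (24.2%, against 9.93%), and the YY1 motif AANATGGCG in 10 (15.2%, against 2.76%). At least 1 of these 3 was found in 37 of the 66 (56.1%, against 15.9%). The 27025 genes were not limited to those expressed in these cells. Whether the shares differ from those of other genes of similar level was not tested. NRF1 and GABP are known regulators of respiratory genes. The cyclic AMP response element TGACGTCA, bound by CREB, was found in 4 (6.06%, against 2.03%): Ndufa10, Ndufa11, Ndufb2 and Uqcrfs1. Their log2 fold changes were -0.16, -0.02, -0.19 and -0.04, inside the range of the other nuclear genes. The median was -0.10 for tested genes with an NRF1 match and -0.05 for those without one. For the ETS motif it was -0.05 with a match and -0.08 without, and for YY1 -0.06 with and -0.07 without, so the order of the medians differed by motif. A match is a description of letters and not of binding. The regions are shown for Cox6a1 (chr5:115348909-115349208, minus strand) for its NRF1 and ETS matches, for Ndufa11 (chr17:56717512-56717811, plus strand) for a cyclic AMP element with an NRF1 match, and for Atp5b (chr10:128083057-128083356, plus strand), the nuclear gene with the highest level, for its YY1 match. Capitals mark the matches.
Cox6a1: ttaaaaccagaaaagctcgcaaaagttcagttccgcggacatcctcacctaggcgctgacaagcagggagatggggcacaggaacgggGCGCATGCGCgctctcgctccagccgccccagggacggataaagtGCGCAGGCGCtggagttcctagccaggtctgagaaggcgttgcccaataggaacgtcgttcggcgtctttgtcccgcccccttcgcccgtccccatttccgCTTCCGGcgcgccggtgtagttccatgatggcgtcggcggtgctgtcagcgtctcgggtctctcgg
Ndufa11: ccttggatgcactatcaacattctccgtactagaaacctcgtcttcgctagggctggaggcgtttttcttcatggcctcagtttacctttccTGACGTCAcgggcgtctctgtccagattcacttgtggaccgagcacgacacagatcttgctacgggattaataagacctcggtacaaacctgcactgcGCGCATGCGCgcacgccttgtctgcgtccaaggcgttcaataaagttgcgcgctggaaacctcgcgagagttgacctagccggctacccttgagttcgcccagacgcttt
Atp5b: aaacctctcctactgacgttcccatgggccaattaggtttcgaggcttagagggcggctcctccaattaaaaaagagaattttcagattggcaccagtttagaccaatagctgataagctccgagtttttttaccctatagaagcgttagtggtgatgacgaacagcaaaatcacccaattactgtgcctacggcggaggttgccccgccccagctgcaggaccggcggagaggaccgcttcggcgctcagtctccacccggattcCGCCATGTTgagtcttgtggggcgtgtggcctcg

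Genes that build and serve the respiratory chain were listed in 11 groups, from assembly factors to the tricarboxylic acid cycle, with 125 genes tested in all. limma called 0 of them higher and 0 lower, with an unadjusted p under 0.05 for 21 (16.8%), against 14% of all tested genes. With the block it called 3 higher (2.4%) and 13 lower (10.4%), against 4.09% and 6.41% of all tested genes. The median log2 fold change of the 125 was -0.09. Calls with the block depended on the pairs kept: with the block, limma called 0 of all 12186 tested genes without pair 2 (2557 with an unadjusted p under 0.05), 1 without pair 3 and 151 higher and 90 lower without pair 1. Of the 13 lower genes, 4 were assembly factors of complex IV, of which 23 were tested.

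The complex IV assembly factors were Sco2, Cox20, Cox10 and Lrpprc. Sco2, which delivers copper to complex IV, had 2.95, 3.65 and 3.57 FPKM with agonist, against 5.20, 5.64 and 5.96 FPKM with vehicle. The agonist libraries all lay below the vehicle libraries, with a log2 fold change of -0.59 (SE 0.11; adjusted p by limma 0.0910, under the block 0.0208). Cox20, a chaperone of the mt-Co2 protein, had 31.5, 25.5 and 24.97 FPKM with agonist, against 41.0, 31.9 and 34.97 FPKM with vehicle (-0.38, adjusted p = 0.262, and 0.0231 with the block). Cox10, which makes heme for complex IV, had 4.59, 5.03 and 4.22 FPKM with agonist, against 5.95, 7.32 and 5.97 FPKM with vehicle (-0.40, 0.198 and 0.0336). The conditions did not overlap for Cox20 and Cox10. Lrpprc, which stabilises mitochondrial messengers, had 7.04, 9.49 and 8.41 FPKM with agonist, against 9.44, 12.0 and 10.1 FPKM with vehicle (-0.31, 0.351 and 0.0382).

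Slirp, the partner of Lrpprc in that complex, had 9.08, 8.80 and 9.30 FPKM with agonist, against 12.4, 11.6 and 12.9 FPKM with vehicle (log2 fold change -0.40; adjusted p by limma 0.106, under the block 0.0219). Polrmt, the RNA polymerase of mitochondrial DNA, had 7.55, 7.82 and 7.21 FPKM with agonist, against 10.5, 9.66 and 9.31 FPKM with vehicle (-0.34, 0.164 and 0.0353). The conditions did not overlap for Slirp and Polrmt, which were the 2 of 24 genes of mitochondrial DNA copying, transcription and RNA processing called with the block. Among the 12 tested genes of mobile carriers and coenzyme Q synthesis, the block called Coq7 and Coq2 lower. Coq2, which joins the ring and tail of coenzyme Q, had 7.13, 10.5 and 8.02 FPKM with agonist, against 14.1, 13.8 and 14.6 FPKM with vehicle (-0.68, adjusted p = 0.106, and 0.0345 with the block). Coq7, a hydroxylase of the same pathway, had a log2 fold change of -0.57 (0.300 and 0.0238).

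Of 15 tested genes in the complex I assembly group, the subunit gene Ndufab1 among them, the block called 1. This was Ecsit, with a log2 fold change of -0.36 (adjusted p by limma 0.173, under the block 0.0428). The block called 0 of the 3 and 6 tested assembly genes of complexes II and III. It also called 0 of the 5 tested genes in the ATP synthase assembly and inhibitor group, which holds Atpif1 and Usmg5. Of 14 tested tricarboxylic acid cycle genes it called Suclg2 and Idh2 lower (-0.32 and -0.26, adjusted p with the block 0.0375 and 0.0475, and 0.294 for each without it). Of 12 tested nuclear regulators it called Ppard, a lipid-sensing nuclear receptor, higher, with 12.0, 10.03 and 9.53 FPKM with agonist, against 8.19, 7.54 and 7.004 FPKM with vehicle (0.42, adjusted p = 0.173, and 0.0244 with the block). The co-activator Ppargc1a was at 0.0184 FPKM or less in every library. Of 9 tested mitophagy and turnover genes the block called Bnip3, a mitophagy receptor, higher (0.31, adjusted p with the block 0.0443) and the matrix proteases Clpp and Lonp1 lower (-0.32 and -0.24, adjusted p with the block 0.0406 and 0.0446), and without the block the adjusted p of these 3 ran from 0.353 to 0.401.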

How the data were processed

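RNA sequencing of 3 EP4 agonist and 3 vehicle libraries of nTregs was analysed from 1 deposited gene table per library. The submitters' processing notes name Trim Galore, HISAT2 and mm10 without versions. Which quantifier, annotation and strand setting were used is not given in the sources used here. The authors, per the file headers, deposited FPKM and coverage for each gene, and the FPKM values were used as deposited, with the deposited coverage signal as an alternative. Fragment counts are unknown, so no counting interval is given. The most common ratio of coverage to FPKM over the genes of a library gave its aligned gigabases, 4.32 to 5.65.

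Rows of reference genes were used. Where a gene had several reference rows in a library, their FPKM was summed and the highest coverage was taken. The genes that reached 1 FPKM in 3 or more libraries were tested on log2(FPKM + 1) with limma 3.58.1 (trend and robust variances, statmod 1.5.0, R 4.3.3), Benjamini-Hochberg adjusted over all 12186 tested genes at 0.05. This scale understates changes of low genes. "Rose" and "fell" refer to this threshold. The test was checked on simulated data with the same spread for all genes. The planted changes were larger than every estimate of the respiratory chain genes, so the check does not speak of changes of that size. Python 3.11.15, pandas 2.3.3, numpy 2.4.6 and matplotlib 3.10.9 were used.

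Same-numbered libraries of the conditions deviated together (correlations of deviations from the group means 0.512, 0.404 and 0.321, all over 0.1; -0.353 to 0.00197 for other pairs), so the replicate number was also fitted as a block. The pairing rests on these correlations alone. Alternatives were the pseudocount, the filter, coverage, scaling, the variance model, the block and leaving out libraries. Chosen after seeing the data were the loci assembled from a library's reads (at least 0.5 reciprocal overlap with the gene) and the FPKM of pseudogenes holding at least 15% of a gene's 50-base stretches. Members and lists were chosen with earlier results of these data known. Genes named by rule are the mitochondrial ones, the highest in level and the highest and lowest in estimate of each complex, isoform pairs, and listed genes called in either fit, of which some are given by estimate only. Other genes named, such as Ndufb10, Uqcrc1, Atp5a1, Atp5f1 and Ndufa13, were chosen after their values were seen. Values of 1 member are not reported here.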

Additional observations from a re-analysis of the deposited data

How the results depend on the processing

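Of the respiratory chain genes, 0 were called higher and 0 lower in each of the 22 alternatives, the replicate block included. The smallest adjusted p over them was 0.0503 (Atp5g1, with the block and without pair 1). The counts over all genes moved more. limma called 2 higher and 0 lower without a filter on low FPKM, 85 and 11 from coverage, 68 higher with upper quartile scaling, 27 higher from assembled loci, 498 and 781 with the replicate block, 519 and 478 with the block and quantile normalization, and 544 and 563 with the block and rescaling without mitochondrial and ribosomal genes. Leaving out 1 library gave 0 to 107 higher and 0 to 26 lower, and leaving out 1 pair with the block gave 0 to 151 and 0 to 90. The replicate block, which pairs the libraries by number, changed no call of the respiratory chain. The nuclear median ran from -0.12 to -0.02 and the mitochondrial median from 0.08 to 0.36. Each moved by less than 1 SD of the 3 pair medians (0.0895 and 0.290). These SDs are larger in size than the medians of the main fit (-0.08 and 0.19), so this does not show that the medians are stable. Of 36 named genes, 22 kept their sign in every alternative, apart from mt-Co1 at 0 with quantile normalization. For those that turned, leaving out 1 library gave log2 fold changes of -0.11 to 0.57 for Atp5g1, -0.045 to 0.11 for Cox6b1, -0.34 to 0.14 for Cox6b2, -0.027 to 0.13 for Cox6c, -0.12 to 0.036 for Cox7a2, -0.11 to 0.16 for Cox7a2l, -0.00767 to 0.86 for Ndufa12, -0.11 to 0.0074 for Sdhb, -0.18 to 0.20 for mt-Nd1, -0.10 to 0.20 for mt-Nd2 and -0.072 to 0.068 for mt-Nd3. With the replicate block, leaving out pair 1 gave 0.075 for Cox7a2, 0.0064 for Cox8a, 0.026 for Sdhb, -0.25 for Ndufa12, -0.0954 for mt-Nd1 and -0.028 for mt-Nd2. Leaving out pair 2 gave -0.00262 for Cox6b1, -0.0248 for Cox6c, -0.023 for Cox7a2l and -0.081 for mt-Nd3, and leaving out pair 3 gave -0.032 for Cox6b1 and 0.021 for Cox6b2. Quantile normalization, with or without the replicate block, gave 0.023 for Cox7a2, 0.0058 for Cox7b, 0.018 for Cox8a and 0.029 for Sdhb. Coverage gave -0.25 for Atp5g1 and -0.024 for Ndufa12. Assembled loci gave 0.47 for Cox5b, 0.023 for Cox6b2 and -0.15 for Ndufa12, and adding pseudogene copies gave -0.33 for Ndufa12. The cause was not tested. Intervals for counting error cannot be given without fragment counts, and 3 libraries a condition limit the precision.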

Other observations

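The assembled loci give a second reading of most respiratory chain genes. A locus of the same span was found in all 6 libraries for 86 of the 97, and its mean was within 5% of the reference row for 75. It was at least 1.5 times the reference row for Atp5f1, Ndufa12, Ndufa13, Cox5b, Ndufa11 and Atp5h. For Ndufa13, a complex I subunit also known for a role in cell death, the assembled loci had 150, 60.1 and 147 FPKM with agonist, against 157, 55.4 and 138 FPKM with vehicle, so that replicate 2 was low in each condition, while its reference row had 63.5, 66.1 and 59.5 FPKM with agonist, against 64.7, 61.1 and 57.5 FPKM with vehicle. For Ndufa11 the assembled locus stood apart in 1 library, vehicle replicate 3, at 52.3 FPKM, where the other 5 lay between 12.3 and 15.03 FPKM. Stretches of 50 bases shared with another gene were found for 58 of the 97, and they made up at least 20% of the stretches for 14, of which 7 are mitochondrial genes.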
